A study of Caenorhabditis elegans with 11 samples.

Results

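The scramblase family of C. elegans, scrm-1 to scrm-8, was followed across 11 arrays of L4 larvae. Its members were found by name in the array's probe annotation, which assigns 10 of the 22548 probe sets to the 8 genes, 3 of them to scrm-1 and 1 to each of the others. The family was picked because of the strain difference of scrm-4 on these same arrays. That difference is therefore given as a description without a test. BW1940 (5 arrays, genotype label dbl-1) carries ctIs40, a chromosomally integrated array of the cosmid ZC421, which holds wild-type dbl-1, and of a sur-5::gfp marker plasmid, and the study uses it as an overproducer of the ligand DBL-1. LT186 (6 arrays, genotype label sma 6) carries sma-6(wk7), a nonsense allele that removes the type I receptor for that ligand. The study derived both strains from the wild-type Bristol strain N2. Animals of both were hermaphrodite populations started from bleached eggs, held without food until the first larval stage, fed OP50 bacteria and picked by eye at L4. A wild-type strain was not part of the 11 arrays, so that a difference cannot be assigned to the higher or to the lower signaling, and other sequences of the cosmid are present in extra copies in BW1940 as well.

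Scramblases let phospholipids pass between the 2 leaflets of a membrane, in either direction and without ATP. They work against the asymmetry that flippases maintain, in which phosphatidylserine is kept on the inner side of the plasma membrane. In C. elegans SCRM-1 acts with the mitochondrial protein WAH-1 in exposing phosphatidylserine on dying cells, where it serves as a signal for engulfment. The human relatives of the family are the PLSCR proteins.

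The values are expression estimates on a linear scale, which the authors scaled to a common target of 100 on each array. For differences they were set to 0 where negative, 10 was added and log2 was taken, which understates the changes of weakly expressed genes. A probe set was tested if it reached 10 on at least 2 of the 11 arrays. By this rule 9 of the 10 scramblase probe sets, for 7 of the 8 genes, and 18801 of all probe sets were tested. The strain comparison was fitted with limma, with p-values adjusted over all 18801. A positive difference is higher in BW1940. The arrays measure whole animals, in which fewer cells of a type and less RNA per cell cannot be told apart. The labels call the arrays biological replicates, and their number limits the precision of every value.

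The 11 arrays differed strongly in transcripts of sperm, which hermaphrodites make during L4, and this bears on several scramblases. A sperm score was taken as the mean log2 value of 37 genes of the msp, ssp and nspd families. It was 7.46, 9.30, 8.18, 9.68 and 9.60 in BW1940 replicates 1 to 5, and 9.51, 5.86, 9.58, 5.51, 9.83 and 9.74 in LT186 replicates 1 to 6. BW1940 replicate 1 and LT186 replicates 2 and 4 thus had the lowest scores. LT186 replicates 2 and 4 were also the most alike of all pairs of arrays (median absolute log2 difference 0.114, against 0.18 for the next pair). Whether they share RNA is not stated in the sources used here. Other marker lists differed between the arrays as well, and the part of each in the results below was not tested. On the 3 arrays of lowest score the mean log2 value of 5 hypodermal genes lay between 6.50 and 7.15, and on the others between 7.47 and 8.76. That of 4 pharyngeal genes lay between 7.47 and 7.54 on those 3 and between 6.46 and 7.26 on the others. The mean log2 value of 5 intestinal genes spanned 8.90 to 9.17 on the BW1940 arrays, against 8.23 to 8.76 on the LT186 arrays, so that the strains did not overlap in it, as in scrm-4. That of 7 germ line and oocyte genes spanned 6.37 to 7.52 on the BW1940 arrays, against 6.68 to 8.44 on the LT186 arrays. That of 3 yolk genes of adults spanned 3.89 to 9.66 on the BW1940 arrays, against 3.78 to 9.35 on the LT186 arrays. These ranges rest on BW1940 replicate 3, at 3.89, and LT186 replicate 6, at 9.35. The other LT186 arrays reached at most 5.98, and the other BW1940 arrays all lay above that. The yolk value thus mostly went with the strain, and its part in the strain differences, that of scrm-4 included, was not tested. The genes altered in the strains were read as a check of the labels. The receptor gene sma-6 followed them on every array, with BW1940 at 82.4 to 128 and LT186 at 26.5 to 33.6 on its brighter probe set. The paper reports more transcript of the ligand gene dbl-1 in BW1940 and reads this as overexpression. On both of its probe sets here dbl-1 was higher on average in BW1940 but overlapped between the strains. It lay at 54.9 to 107 in BW1940 and at 40.8 to 79.5 in LT186 on its brighter probe set (log2 difference 0.40, SE 0.19, adjusted p = 0.318 by limma), and at 20.1 to 62.0 in BW1940 and at 14.6 to 28.6 in LT186 on the other (0.78, SE 0.22, adjusted p = 0.117).

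The gene scrm-4 (F11A6.2) was high in every BW1940 array and low in every LT186 array. Its values were 159, 214, 213, 191 and 215 in BW1940 replicates 1 to 5. In LT186 replicates 1 to 6 they were 33.0, 7.27, 11.8, 20.6, 27.5 and 17.5. The strains did not overlap, and the lowest BW1940 array stood 4.83-fold above the highest LT186 array. The means were 199 ± 24.2 over the BW1940 arrays (SD, n = 5) and 19.6 ± 9.59 over the LT186 arrays (SD, n = 6). No ratio of these means is given, since the lowest LT186 values lie near the range of negative estimates. On the log2 scale the difference was 2.87 (standard error, SE, 0.22), and 5 of the 18801 probe sets tested had a higher one. These are the values that led to the choice of the family.

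Inside the strains scrm-4 spanned 159 to 215 on the BW1940 arrays, against 7.27 to 33.0 on the LT186 arrays, and it did not pass the test against the sperm score. On the log2 scale, after adding 10, its SD was 0.18 in BW1940 and 0.49 in LT186, against the 2.87 between the strains. In a fit with strain and sperm score together, the slope of scrm-4 was 0.11 log2 units for each log2 unit of score (SE 0.066, adjusted p = 0.248 by limma). It was 0.031 without LT186 replicate 2 and 0.20 without LT186 replicate 4, and passed in neither fit (adjusted p = 0.789 and 0.109). The strain difference in that fit was 2.82 (SE 0.20). Without the 3 arrays of lowest score, a choice made once the values had been seen, it was 2.80 (SE 0.21). BW1940 replicate 1, which has the lowest score of its strain, also had the lowest scrm-4 value of its strain, at 159. LT186 replicates 2 and 4, the lowest scores of all, held 7.27 and 20.6, the lowest and the third-highest scrm-4 values of LT186.

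**Figure D1:**
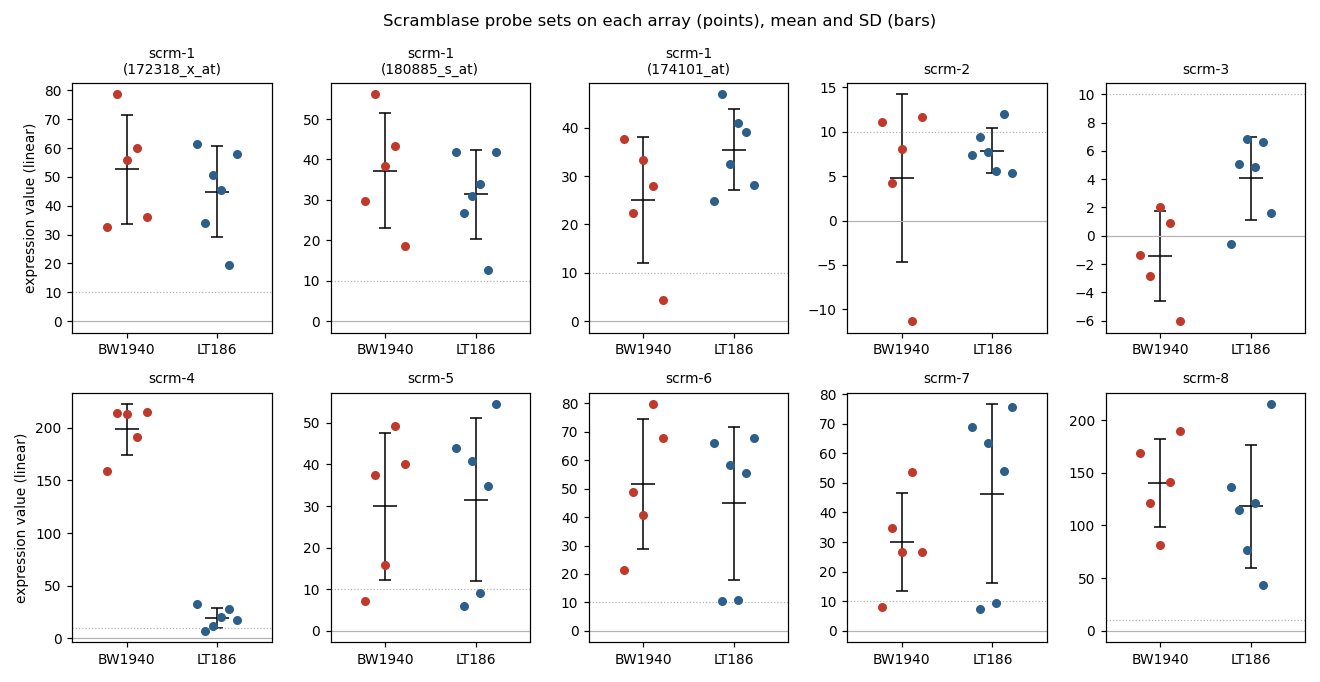
Expression values (linear scale) of the 10 scramblase probe sets on each of the 5 BW1940 arrays (red) and 6 LT186 arrays (blue), in replicate order from left to right, with the mean and SD as black bars and the filter value of 10 as a dotted line. The BW1940 arrays of scrm-4 lie between 159 and 215 and the LT186 arrays between 7.27 and 33.0, while the strains overlap in the other panels.

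The scramblases other than scrm-4, which was given no test, did not pass the test for the strain. Of their 8 tested probe sets, 0 passed limma's test after adjustment and 0 had an unadjusted p under 0.05, against 1.02% and 16.7% of all probe sets tested. These counts are given as a description, and no result about the family is read from them. The differences of the 8 lay between -0.46 and 0.32 on the log2 scale, and their smallest adjusted p was 0.457. The strains overlapped in each of these 8, and in scrm-3, which was not tested. A lack of overlap held for 4.41% of all probe sets tested. That of scrm-4 goes with the choice of the family and is no result about it. By exact permutation of the 11 arrays (a two-sided test), whose smallest possible p is 0.00216 here, the lowest p of the 8 was 0.13.

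**Figure D2:**
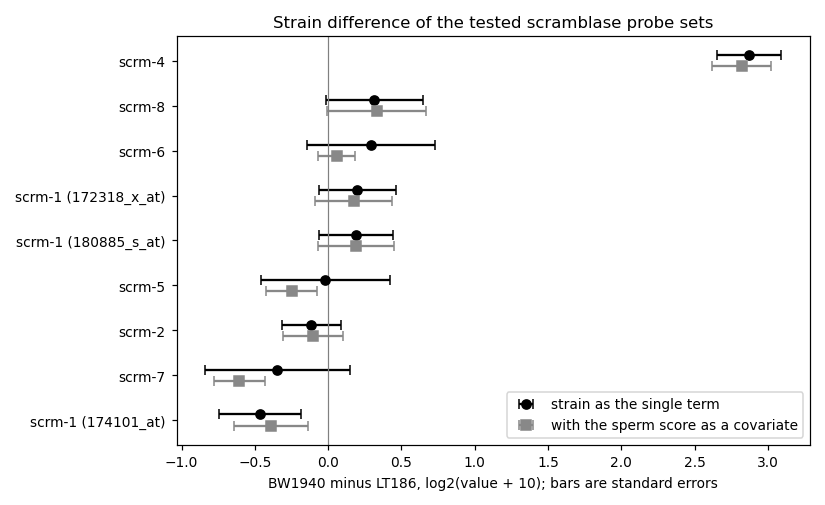
Difference BW1940 minus LT186 on the log2(value + 10) scale for the 9 tested scramblase probe sets (5 arrays against 6), with strain as the single term (black circles) and with the sperm score as a covariate (grey squares); bars are standard errors. The value of scrm-4 is 2.87, and the others lie between -0.46 and 0.32 with strain as the single term.

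The best-studied member, scrm-1 (T22H2.5), was measured by 3 probe sets, none of which passed the test. The brightest (172318_x_at) gave 32.6, 78.7, 55.8, 60.0 and 36.0 in BW1940 replicates 1 to 5. In LT186 it ranged from 19.4 to 61.4 with a median of 47.9. The strains overlapped over most of their range. The log2 difference was 0.20 (SE 0.26, adjusted p = 0.789 by limma). A further probe set (180885_s_at) ordered the arrays in nearly the same way, with a Pearson correlation of 0.943 to the brightest over the 11 arrays and a log2 difference of 0.19 (SE 0.26, adjusted p = 0.798). The remaining probe set (174101_at) did not follow them, with correlations of -0.17 and 0.075, and its values were 25.1 ± 12.9 over the BW1940 arrays (SD, n = 5) and 35.5 ± 8.36 over the LT186 arrays (SD, n = 6). Its lowest array was BW1940 replicate 5, at 4.31, and its log2 difference was -0.46 (SE 0.28, adjusted p = 0.457). Without BW1940 replicate 5 the difference was -0.17 (SE 0.17, adjusted p = 0.775). The 3 estimates differ in sign, and each lies within 2 SE of 0. The sources used here do not say which probe set measures scrm-1 best.

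The genes scrm-2 and scrm-3 were at or near the floor on all arrays. For scrm-2 (ZK1053.5) the BW1940 arrays ran from -11.3 to 11.6 and the LT186 arrays from 5.33 to 11.9, and 3 of the 11 arrays reached 10. Its log2 difference was -0.12 (SE 0.20, adjusted p = 0.857 by limma). For scrm-3 (C04E12.7), which was not tested, the BW1940 arrays ran from -6.04 to 2.04 and the LT186 arrays from -0.608 to 6.82, and 4 of the 11 lay at or below 0. No ratio is given for either gene, since these values are within the range of negative estimates on the same arrays.

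The genes scrm-5, scrm-6 and scrm-7 passed the test for the sperm score and not that for the strain. For scrm-5 (K08D10.8) the values were 7.09, 37.4, 15.8, 49.4 and 40.0 in BW1940 replicates 1 to 5, and 44.0, 6.07, 40.7, 9.06, 34.8 and 54.6 in LT186 replicates 1 to 6. For scrm-6 (F46A8.10) they were 21.5, 48.9, 40.8, 79.9 and 68.0 in BW1940, and 66.0, 10.6, 58.3, 10.7, 55.7 and 67.7 in LT186. For scrm-7 (Y50E8A.9) they were 7.89, 34.7, 26.5, 53.7 and 26.7 in BW1940, and 68.8, 7.40, 63.3, 9.36, 53.9 and 75.7 in LT186. In all of these genes the 3 lowest arrays were BW1940 replicate 1 and LT186 replicates 2 and 4, the arrays of lowest sperm score. The strains overlapped in each, with log2 differences of -0.019 (SE 0.44, adjusted p = 0.992 by limma) for scrm-5 and 0.29 (SE 0.44, adjusted p = 0.822) for scrm-6. BW1940 replicate 3, with the next higher score, was the next higher array for scrm-5, scrm-6 and scrm-7.

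In the fit with strain and sperm score, the slope was 0.45 for scrm-5 (SE 0.057, adjusted p = 0.000107 by limma), 0.47 for scrm-6 (SE 0.040, adjusted p = 5.15e-06) and 0.52 for scrm-7 (SE 0.057, adjusted p = 3.49e-05), each in log2 units for a log2 unit of score. The slope was higher in 6.07%, 5.82% and 4.97% of all probe sets tested, for scrm-5, scrm-6 and scrm-7 in that order. The other 6 scramblase probe sets did not pass. A slope that passed was common on these arrays: 28.4% of all probe sets passed, 14.2% rising and 14.2% falling with the score. Without LT186 replicate 2 or 4 that share was 16.4% or 15.2%, while the same 3 scramblase probe sets passed. A count of 3 of 9, or 33.3%, all rising, is given as a description, and no result about the family as a whole is read from it. With any 1 array left out the slopes stayed between 0.42 and 0.53 for scrm-5, 0.45 and 0.50 for scrm-6, and 0.49 and 0.56 for scrm-7, and each passed every time. With LT186 replicates 2 and 4 averaged into 1 array, 15.5% of all probe sets passed, and the slopes were 0.49, 0.48 and 0.52, each past the test. Without all 3 arrays of lowest score, a fit in which 0.388% of all probe sets passed, the slopes were 0.70 (SE 0.19, adjusted p = 0.215), 0.44 (SE 0.18, adjusted p = 0.605) and 0.26 (SE 0.23, adjusted p = 0.969) for scrm-5, scrm-6 and scrm-7. Only that of scrm-7 was lower by more than its SE. A test of whether the slope differed between the strains passed for 0 of 18801 probe sets (637 at an unadjusted p under 0.05), and the smallest unadjusted p of the family was 0.00995, for scrm-5.

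**Figure D3:**
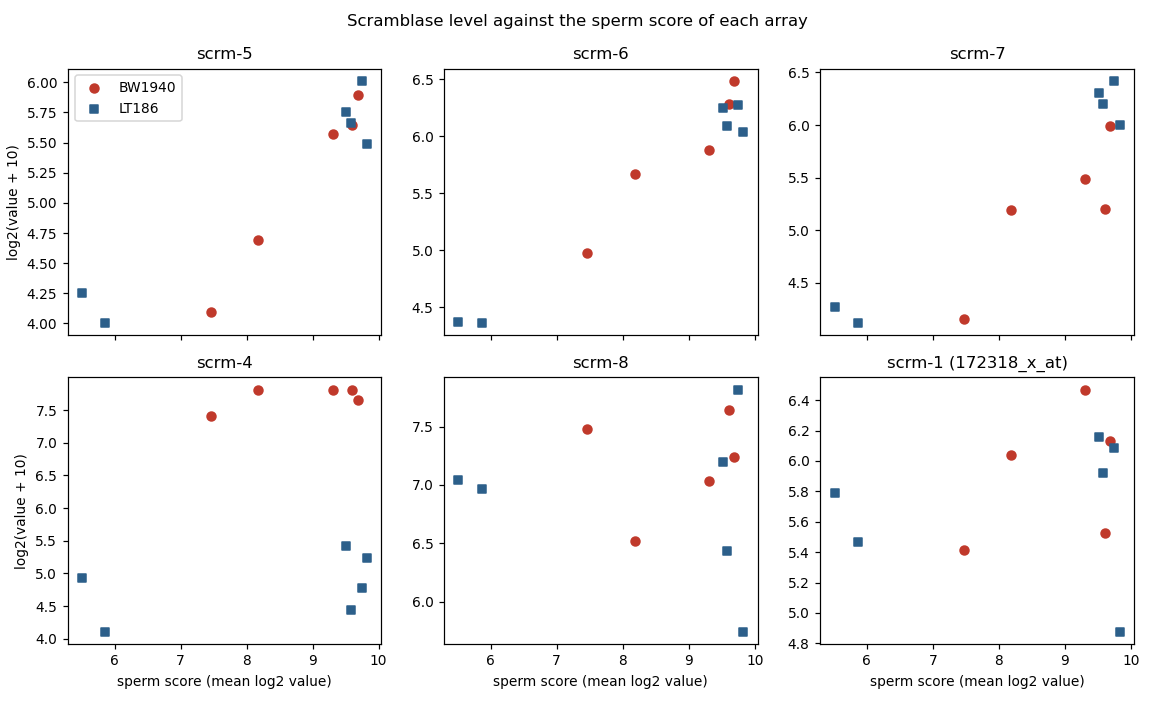
Level of 6 scramblase probe sets, as log2(value + 10), against the sperm score of each array (mean log2 value of 37 sperm genes), for BW1940 (red circles, 5 arrays) and LT186 (blue squares, 6 arrays). The slopes of scrm-5, scrm-6 and scrm-7 are 0.45, 0.47 and 0.52, and those of scrm-4, scrm-8 and scrm-1 did not pass the test.

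For scrm-7 it depended on how sperm transcripts were taken into account whether the strain difference passed. With strain as the single term it was -0.35 (SE 0.49, adjusted p = 0.813 by limma). With the score as a covariate it was -0.61 (SE 0.17, adjusted p = 0.0519), just short of the threshold, in a fit in which 8.64% of all probe sets passed. Without the 3 arrays of lowest score and without the covariate it was -0.76 (SE 0.20, adjusted p = 0.136). With the score over msp genes the difference was -0.73 (adjusted p = 0.0434), in a fit in which 9.09% of all probe sets passed, and with the score over spe genes it was -0.18 (adjusted p = 0.477), in a fit in which 4.85% passed. With the score as a covariate the differences of scrm-5 and scrm-6 were -0.25 (SE 0.17, adjusted p = 0.376) and 0.057 (SE 0.12, adjusted p = 0.798).

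The gene scrm-8 (K08D10.7) varied widely and passed neither the test for the strain nor that for the sperm score. Its values were 168, 121, 81.6, 141 and 189 in BW1940 replicates 1 to 5, and 137, 115, 76.7, 122, 43.6 and 215 in LT186 replicates 1 to 6. The highest and the lowest array were both of LT186. The log2 difference was 0.32 (SE 0.33, adjusted p = 0.718 by limma) and the slope on the sperm score -0.034 (SE 0.11, adjusted p = 0.844). LT186 replicate 5 and replicate 6, at 43.6 and 215, had sperm scores of 9.83 and 9.74.

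Members that lie close together in the genome were set side by side as a description. In the WBcel235 annotation scrm-4 and scrm-1 lie on chromosome I with 1 protein-coding gene between them, and scrm-5 and scrm-8 are direct neighbours on chromosome IV. The strain difference was 2.87 for scrm-4 and 0.20 for the brightest probe set of scrm-1. Since scrm-4 was picked for its difference, a contrast with its neighbours follows in part from that choice. The sperm score slope was 0.45 for scrm-5 and -0.034 for scrm-8. The genes with a slope past the test, scrm-5, scrm-6 and scrm-7, lie on chromosomes IV, I and V. The gene between scrm-4 and scrm-1 had no probe set counted as its own, so that its values were not read here. Of the other genes next to scrm-4 with a probe set of their own, kpc-1, a proprotein convertase gene and its direct neighbour, had 4 probe sets. The brightest averaged 200 ± 46.6 over the BW1940 arrays (SD, n = 5) and 140 ± 33.4 over the LT186 arrays (SD, n = 6). Its log2 difference was 0.49 (SE 0.20, adjusted p = 0.247 by limma). The other 3 had differences of 0.64, 0.68 and 0.70, all higher in BW1940 and short of the threshold (adjusted p between 0.0806 and 0.113, unadjusted p between 0.00152 and 0.00331). On the one with the largest difference kpc-1 averaged 80.1 ± 17.8 over the BW1940 arrays (SD, n = 5) and 45.1 ± 9.34 over the LT186 arrays (SD, n = 6), and the strains overlapped. W04G5.8 and T22H2.4 had differences of 0.27 (SE 0.16, adjusted p = 0.428) and 0.057 (SE 0.16, adjusted p = 0.921), and W04G5.7 and sri-11 stayed under 10 on every array. None of the probe sets tested for these 3 genes passed the test for the strain after adjustment.

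Over the 11 arrays the genes with values most like those of scrm-4, among 14296 others, were npp-14, a nucleoporin gene (Pearson correlation 0.982), T01C8.3 (0.964), F16H6.10 (0.963), the mitochondrial gene ND5 (0.96) and sma-6 (0.957). All of them were higher in BW1940, by log2 differences of 1.62, 1.29, 0.64, 2.33 and 1.42 in that order. A gene like scrm-4 over all arrays had to differ between the strains, so that no test is given for these differences. With the strain means subtracted the order changed, and srv-32 (0.961), C28A5.2 (0.96), oac-58 (0.868), ints-11 (0.838) and cyl-1 (0.83) were most like scrm-4. Of the first 5 genes, npp-14 alone had a correlation above 0.7 in this comparison as well, at 0.732. The correlations are given as a description.

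Genes that work beside scramblases in membrane asymmetry and in the removal of dying cells were compared between the strains as well. Of 47 such genes tested, 0 passed limma's test after adjustment and 6 had an unadjusted p under 0.05, against 1.02% and 16.7% of all probe sets tested. The counts are given as a description, and no result about the list is read from them. The differences lay between -0.57 and 0.54, with a median of -0.030, beside 0.078 over all probe sets tested. The flippase gene tat-1 averaged 179 ± 46.5 over the BW1940 arrays (SD, n = 5) and 209 ± 32.4 over the LT186 arrays (SD, n = 6), and its log2 difference was -0.24 (SE 0.18, adjusted p = 0.575). For chat-1, whose product is the chaperone of TAT-1, the difference was 0.16 (SE 0.14, adjusted p = 0.630). Genes of other lipid transporters did not pass either. The difference was -0.039 (SE 0.13) for ced-8, related to the mammalian scramblase Xkr8, -0.17 (SE 0.12) for the anoctamin gene anoh-2, and -0.22 (SE 0.29) for the ABC transporter gene ced-7. The partner gene of scrm-1, wah-1, averaged 191 ± 115 over the BW1940 arrays (SD, n = 5) and 205 ± 128 over the LT186 arrays (SD, n = 6), with a difference of -0.036 (SE 0.49, adjusted p = 0.985).

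Against the sperm score 5 of these 47 genes passed, beside 28.4% of all probe sets. Without LT186 replicate 2 or 4 there were 2 in either case, beside 16.4% and 15.2% of all probe sets. Without LT186 replicate 5 there were 9, beside 33.6%. Over all settings the count ran from 0, without the 3 arrays of lowest score, to 20, with array weights. In those fits 0.388% and 49.7% of all probe sets passed. The difference between the list and all probe sets was not tested. The gene psr-1, which encodes a receptor for phosphatidylserine, rose with the score (slope 0.26, SE 0.037, adjusted p = 0.000315 by limma). The flippase gene tat-4 fell with it (slope -0.27, SE 0.044, adjusted p = 0.000910), as did ced-1, the engulfment receptor gene (slope -0.18, adjusted p = 0.0216), egl-1, which starts the death pathway (slope -0.22, adjusted p = 0.0283), and piki-1, a phosphoinositide kinase gene (slope -0.12, adjusted p = 0.0459). No gene of this list had a slope as high as those of scrm-5, scrm-6 and scrm-7. With the score as a covariate 3 of the 47 genes passed for the strain, against 8.64% of all probe sets. They were psr-1 (-0.43, adjusted p = 0.0392), the phosphatidylserine synthase gene pssy-2 (-0.37, adjusted p = 0.0320) and lmp-1, which encodes a lysosomal membrane protein (0.44, adjusted p = 0.0469).

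**Figure D4:**
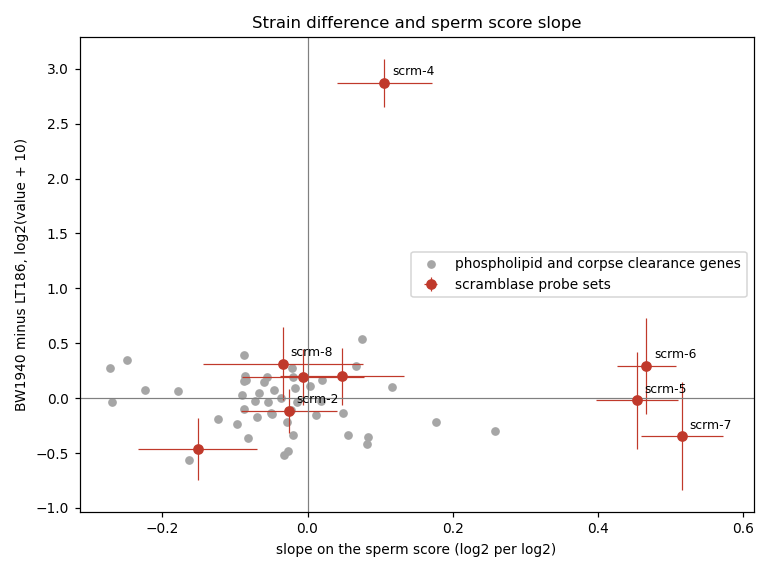
Strain difference (BW1940 minus LT186, log2(value + 10)) against the slope on the sperm score (log2 units for each log2 unit of score) for the 9 tested scramblase probe sets (red, bars are standard errors) and 47 genes of membrane asymmetry and corpse removal (grey). The point of scrm-4 stands apart upward at 2.87, and scrm-5, scrm-6 and scrm-7 stand to the right at slopes of 0.45 to 0.52.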

How the data were processed

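Each of the 11 Affymetrix C. elegans GeneChips held RNA of L4 animals, 5 of BW1940 and 6 of LT186. The authors deposited an intensity estimate (linear scale) for each probe set. Microarray Suite version 5 wrote the probe intensities, and Probe Profiler turned them into expression values scaled to 100, with uninformative probe pairs down-weighted. Detection calls were not used here. Probe sets were named from the platform annotation, in which 20766 carry 1 symbol (20701 with a gene ID in the WBcel235 reference), 887 several and 895 none.

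Negative values were set to 0, and log2 was taken after adding 10. Probe sets of at least 10 on at least 2 arrays were fitted with limma 3.58.1 (R 4.3.3), with strain alone or with strain and sperm score, and p-values were adjusted by Benjamini and Hochberg at 0.05. The fits were tested on simulated data with known changes. Apart from the probe sets given a slope, those data held no differences that went with the sperm score, unlike the arrays. They therefore cannot show how the fit with strain alone does under such differences. Other steps used Python 3.11.15. Where a gene had several probe sets, the list and likeness comparisons used that of highest mean, and every scramblase probe set was kept. The members, gene lists and tests were chosen with earlier results of these data known. Genes named are the scramblases, list genes past a test with fixed examples (anoh-1 was not measured), the 5 genes most like scrm-4 and its 3 measured neighbours on each side. Alternatives changed the offset, filter, scaling, block, weights, test, covariate and arrays. No reference sequence was used.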

Additional observations from a re-analysis of the deposited data

How the results depend on the processing

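The strain difference of scrm-4 moved with the offset, to 3.42 with an offset of 1 and to 1.84 with an offset of 50, and stayed between 2.73 and 3.0 with any 1 array left out. The other settings moved it by less than its spread within the strains. The replicate block left it at 2.87, in a fit in which 5 of all probe sets were called. Of the 8 other scramblase probe sets, 0 were called with strain as the single term under any setting tried, 1 array left out included, and 0 with the sperm score as a covariate. For scrm-7 the strain difference passed with the score over msp genes as a covariate (-0.73, adjusted p = 0.0434 by limma), not with that over spe genes (-0.18, adjusted p = 0.477), and, with the sperm score as a covariate, without BW1940 replicate 4 (-0.69, adjusted p = 0.0379) or LT186 replicate 5 (-0.69, adjusted p = 0.0333). Without the 3 arrays of lowest score 0 scramblase probe sets and 0.388% of all probe sets passed for the slope, with slopes of 0.70 for scrm-5, 0.44 for scrm-6 and 0.26 for scrm-7. With array weights the slope of scrm-1 (174101_at), -0.15, passed (adjusted p = 0.0398), in a fit in which 49.7% of all probe sets passed. Of the 47 list genes, 1 was called by an ordinary t-test on the log2 values, adjusted in the same way. That test is not the modified t-test of the paper. With strain as the single term 0 were called with any 1 array left out. With the sperm score as a covariate and all arrays kept, 3 were called. Leaving out arrays was not counted for the list in that fit.

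Of all probe sets 191 were called for the strain, 129 higher and 62 lower. There were 443 with array weights, 381 by the ordinary t-test, 416 with no filter and 366 with an offset of 50. With the sperm score as a covariate there were 1625, without the 3 arrays of lowest score 83, and with any 1 array left out 78 to 151. After quantile normalization 86 were higher and 90 lower, and after median centring 71 and 77. The labels do not say whether arrays of the same number were handled together. Their deviations from the strain means had correlations between -0.688 and 0.105 over the 5 pairs. Of the 5 BW1940 arrays, 0 were most like the LT186 array of their own number. The deviations include the differences in sperm score between the arrays, so that they cannot decide the question. The replicate block left the slopes of scrm-5, scrm-6 and scrm-7 past the test, at 0.51, 0.48 and 0.57. Values near or below 10, as for scrm-2, scrm-3 and the lowest LT186 arrays of scrm-4, lie close to the spread of negative estimates, which limits any ratio drawn from them.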
